A study of Mus musculus with 12 samples.

Results

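Acute-phase and antimicrobial proteins are secreted by liver, epithelium and phagocytes when bacterial products or inflammatory cytokines reach them. Signals from Toll-like receptors, interleukin-1 and interleukin-6 act on their genes through NF-κB, C/EBP and STAT3 transcription factors, and the proteins then bind microbes, withhold iron, capture haemoglobin or inhibit proteases released by inflammatory cells. Lysozyme, which cleaves the bacterial cell wall, is made by resting macrophages in large amounts and serves as a marker of the lineage. The 8 genes described here are Saa3, Hp, Cp and Ptx3, which encode acute-phase proteins, Lcn2 and Slpi, which encode antimicrobial proteins, and the lysozyme genes Lyz1 and Lyz2. They were chosen by name, and all 8 were found among the 43278 gene symbols of the table.

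The samples were 12 RNA-seq libraries of mouse peritoneal macrophages (PMφs) in 4 groups of 3, and the study asked how accumulated oxidized low-density lipoprotein (oxLDL) alters the response to lipopolysaccharide (LPS), a bacterial ligand of Toll-like receptor 4. All cells came from wild-type C57BL/6J mice of both sexes, 8 to 12 wk old, lavaged 4 d after an injection of 1 ml of 4% thioglycolate, and were used after 18 h of adherence. Control PMφs received neither agent, oxLDL PMφs received oxLDL at 100 µg/ml for 24 h, LPS PMφs received LPS at 10 ng/ml, and oxLDL+LPS PMφs received both at these doses. The time in LPS is not given for these libraries in the sources used here. Cells of up to 10 mice were combined and then divided among the groups, so a replicate is a pool and not 1 animal, and libraries that carry the same replicate number, 1 to 3, were taken to come from the same pool.

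Values are scaled counts, that is, reads per gene divided by 1 factor per library and rounded. The factors imply between 16725738 and 26178431 reads per library. The scaled counts summed to between 17152972 and 17709731 in libraries without LPS and to between 22071853 and 26384551 in those with LPS. The 8 macrophage markers, none of them at 0 throughout, summed to between 86397 and 96980 per library without LPS and to between 97766 and 121048 with it.

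Upstream sequences are shown for Saa3 and Ptx3, which were lower with oxLDL+LPS than with LPS when libraries were compared within pools, and for Slpi, which was higher. The windows are from RefSeq on GRCm38.p6, cover the bases before the RefSeq start of the gene that lie outside annotated exons, and read 5′ to 3′ on the gene's strand. Capitals mark a match to the C/EBP pattern TTGCNNAA on either strand. The Saa3 window lies at chr7:46715701-46715926 on the minus strand, the Ptx3 window at chr3:66219637-66219886 on the plus strand and the Slpi window at chr2:164356508-164356757 on the minus strand, within the longer span that GENCODE gives Slpi.
Saa3: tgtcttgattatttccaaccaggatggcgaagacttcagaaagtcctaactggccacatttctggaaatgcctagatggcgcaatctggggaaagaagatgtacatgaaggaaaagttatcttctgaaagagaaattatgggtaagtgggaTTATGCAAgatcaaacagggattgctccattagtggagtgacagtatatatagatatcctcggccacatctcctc
Ptx3: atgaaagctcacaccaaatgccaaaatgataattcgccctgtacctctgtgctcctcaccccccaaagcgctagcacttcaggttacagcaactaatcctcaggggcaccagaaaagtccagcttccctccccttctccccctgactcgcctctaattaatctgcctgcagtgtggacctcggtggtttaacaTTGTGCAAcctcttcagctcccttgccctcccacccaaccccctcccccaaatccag
Slpi: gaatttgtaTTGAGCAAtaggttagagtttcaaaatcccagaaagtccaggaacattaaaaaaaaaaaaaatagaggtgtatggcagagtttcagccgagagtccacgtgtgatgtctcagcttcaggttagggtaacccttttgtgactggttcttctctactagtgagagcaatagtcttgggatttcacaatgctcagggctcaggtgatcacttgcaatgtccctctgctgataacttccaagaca

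Windows of the 250 bases before a RefSeq start were found for 7 of the 8 genes, all but Hp, and Cp had 1 for each of a pair of starts. A match to TTGCNNAA on either strand was found in 6 of these 8 windows and in 9.56% of 32851 windows of all genes. By gene, 6 of the 7 had a match in any window, Lyz2 being the other, as had 10.8% of 27025 genes. The Cp match was in the window of the later start, and the window before the first annotated base of the gene had 0. The Cp, Lcn2 and Slpi matches lay within the annotated span of the gene. Those of Cp and Lcn2 were outside the longest stretch of the window free of exons, 250 to 196 bases before the start in Cp and 111 to 59 in Lcn2. In Saa3 the match lay 99 to 92 bases before the start, in Ptx3 57 to 50, in Cp 70 to 63, in Lyz1 209 to 202, in Lcn2 216 to 209 and in Slpi 241 to 234. The STAT pattern TTCNNNGAA and the κB motif, also searched on both strands, were found in 0 of the 8 windows and in 7.02% and 3.9% of all windows, so that no match overlapped another motif. The matches describe letters in a window, and no binding was measured.

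Saa3 encodes serum amyloid A3, a form of this acute-phase apolipoprotein made outside the liver (chr7:46711998-46715700, minus strand). Control libraries held 1638, 2166 and 2821 scaled counts and LPS libraries 40722, 11820 and 27607, in the order of replicate numbers 1 to 3. Libraries with oxLDL alone held 1708, 2003 and 2659, and those with oxLDL+LPS held 24375, 9873 and 16660. Every library with LPS was above every library without it, and in both LPS groups number 1 was highest and number 2 lowest. LPS raised Saa3 11-fold against control (log2 difference 3.46 ± 0.42 SE, n = 3 per group, limma, adjusted p = 0.00031), and oxLDL+LPS raised it 7.61-fold against oxLDL (2.93 ± 0.32, limma, adjusted p = 0.000289). Within a pool the ratio of LPS to control was 24.9, 5.46 and 9.79. Fold changes of fits are on the log2(scaled count + 1) scale, and in whole cultures fewer cells of a type and less RNA per cell cannot be told apart.

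Hp encodes haptoglobin, which binds free haemoglobin (chr8:109575128-109579172, minus strand). Control libraries held 69, 53 and 32 scaled counts, oxLDL libraries 73, 56 and 34, LPS libraries 1567, 315 and 268, and oxLDL+LPS libraries 1674, 375 and 285. Libraries with and without LPS did not overlap, and in all 4 groups number 1 was highest and number 3 lowest. LPS raised Hp 10.2-fold (3.35 ± 0.64, limma, adjusted p = 0.00315) and oxLDL+LPS raised it 10.7-fold against oxLDL (3.42 ± 0.65, limma, adjusted p = 0.00398). Without LPS replicate 1 the first log2 difference was 2.55 (limma, adjusted p = 0.000942), and without oxLDL+LPS replicate 1 the second was 2.63 (limma, adjusted p = 0.0014).

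The fibroblast and mesothelial marker sums had the same order of pools as Hp, while those of neutrophils, B cells and eosinophils were highest in number 3 in control libraries. The 8 fibroblast markers, none at 0 throughout, summed to 24643, 17185 and 5701 in control libraries and to 32081, 15576 and 7178 in LPS libraries. The 10 mesothelial markers, again none at 0 throughout, summed to 1149, 842 and 324 in control libraries and to 1055, 465 and 269 in LPS libraries. From control to LPS the fibroblast sum was thus higher in numbers 1 and 3 and lower in number 2, and the mesothelial sum was lower in all 3, whereas Hp was higher in all 3 by ratios of 22.7, 5.94 and 8.38. The part of these cells in the level of Hp was not tested.

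**Figure D1:**
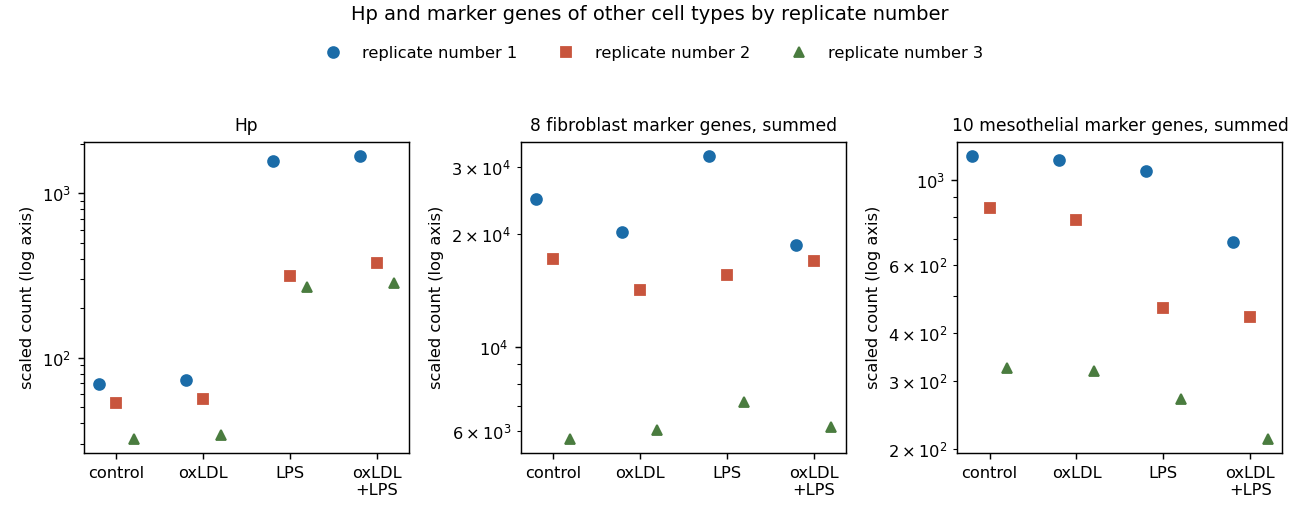
Scaled counts of Hp, of 8 fibroblast markers summed and of 10 mesothelial markers summed on log axes, by group, with 1 point per library marked by replicate number. In each panel and group number 1 is highest and number 3 lowest, while of the 3 panels only that of Hp separates the libraries with LPS from those without.

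Cp encodes ceruloplasmin, the copper-carrying ferroxidase of plasma (chr3:19957054-20009145, plus strand). Control libraries held 67, 77 and 46 scaled counts, oxLDL libraries 62, 35 and 38, LPS libraries 1630, 628 and 1353, and oxLDL+LPS libraries 391, 444 and 302. All 3 oxLDL+LPS libraries lay below all 3 LPS libraries, and both groups lay above those without LPS. LPS raised Cp 17.7-fold (4.15 ± 0.36, limma, adjusted p = 4.95e-05) and oxLDL+LPS raised it 8.42-fold against oxLDL (3.07 ± 0.26, limma, adjusted p = 7.77e-05). Exons of Cp share 108 bases with those of Hps3 on the other strand, and whether counting used strand is not given in the sources used here.

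Ptx3 encodes pentraxin 3, a long pentraxin released by macrophages and dendritic cells that opsonizes microbes (chr3:66219910-66225805, plus strand). Control libraries held 6, 1 and 1 scaled counts, oxLDL libraries 10, 5 and 5, LPS libraries 233, 954 and 831, and oxLDL+LPS libraries 117, 625 and 275. With LPS, number 1 was lowest and number 2 highest, the reverse of the order seen for Saa3. The implied reads were 10 over the control libraries and 1837 over the LPS libraries, a ratio of 239 (95% interval 130 to 500, counting error only). Against oxLDL, with 22 reads, oxLDL+LPS held 898, a ratio of 50.6 (33.2 to 81.2). Ptx3 rose in both comparisons (limma, adjusted p = 5.59e-05 against control and 0.000337 against oxLDL), but it passed the filter on low values through the libraries with LPS, so that it could enter these tests only by being higher there. Its log2 differences, 7.55 and 5.22, were 5.80 and 4.28 with a pseudocount of 8. The first was 8.16 without control replicate 1, and the second was 5.82 and 4.62 without oxLDL+LPS replicates 1 and 2.

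Lcn2 encodes lipocalin 2, which withholds iron from bacteria by binding siderophores (chr2:32384633-32388252, minus strand). Control libraries held 13, 15 and 15 scaled counts, oxLDL libraries 17, 17 and 12, LPS libraries 2454, 853 and 1513, and oxLDL+LPS libraries 1358, 766 and 1267. Number 2 was lowest in both LPS groups, as for Saa3, and no library with LPS came near those without. LPS raised Lcn2 96-fold (6.59 ± 0.35, limma, adjusted p = 3.83e-06) and oxLDL+LPS raised it 68-fold against oxLDL (6.09 ± 0.26, limma, adjusted p = 3.1e-06).

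Lcn2 is also a granule gene of neutrophils. Of 16 neutrophil markers, 2 were at 0 in all 12 libraries, Ly6g and Stfa2l1, and 8, these included, stayed under 10 in all. The granule genes Ltf, Camp and Ngp reached 25, 10 and 1 at most, and S100a9 reached 1. S100a8 held 31 to 49 scaled counts without LPS and 74 to 248 with it, Mmp9 held 68 to 323 and 427 to 859, and Mmp8 reached 1661. Of the 5 markers tested for LPS against control, 3 were called higher (Csf3r, S100a8 and Mmp9) and 1 lower (Cxcr2), beside 31.4% and 30.3% of all genes. Cxcr2 held 38, 43 and 38 scaled counts in control libraries and 2, 2 and 1 with LPS. It passed the filter on low values through the control libraries, so it could enter this test only by being lower with LPS. The summed list ranged from 1545 to 3278 without LPS, from 5940 to 7401 with LPS and from 3890 to 4909 with oxLDL+LPS, and Csf3r made up 71.9% of it. The part of neutrophils in the level of Lcn2 was not tested.

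Slpi encodes secretory leukocyte protease inhibitor, which blocks neutrophil elastase and is itself bactericidal (chr2:164354070-164389095, minus strand). Control libraries held 304, 314 and 358 scaled counts, oxLDL libraries 341, 328 and 403, LPS libraries 1611, 1536 and 1601, and oxLDL+LPS libraries 4245, 1791 and 5037. The LPS libraries lay close together (1583 ± 40.7 SD, n = 3), and all 3 oxLDL+LPS libraries exceeded them, number 2 by the smallest margin. LPS raised Slpi 4.86-fold (2.28 ± 0.10, limma, adjusted p = 1.33e-06) and oxLDL+LPS raised it 9.45-fold against oxLDL (3.24 ± 0.36, limma, adjusted p = 0.000294).

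**Figure D2:**
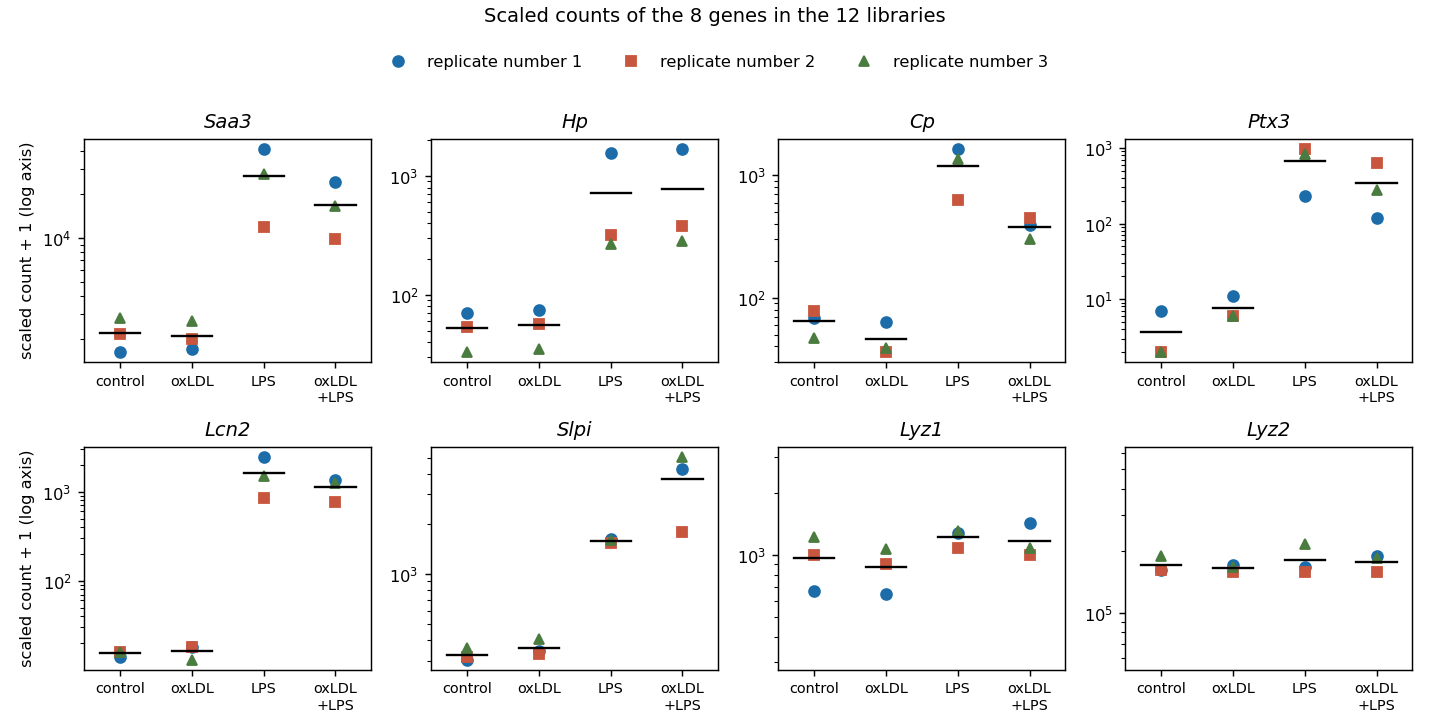
Scaled counts plus 1 of the 8 genes on log axes in the 12 libraries, with 1 point per library marked by replicate number and a bar at the mean of each group. Saa3, Hp, Cp, Ptx3, Lcn2 and Slpi are higher in every library with LPS than in any without, and Lyz1 and Lyz2 overlap between groups. Of all genes tested, 32.1% have every LPS library above every control library. For oxLDL+LPS above oxLDL the share is 29.6%.

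Lyz2 encodes the lysozyme of macrophages and Lyz1 that of Paneth cells, and the genes lie side by side on the minus strand at chr10:117277331-117282321 and chr10:117287797-117292868, with 5475 bases between them. Lyz2 held 161969, 161858 and 188038 scaled counts in control libraries, 170787, 158561 and 166368 with oxLDL, 166971, 158501 and 215646 with LPS, and 188420, 157225 and 183811 with oxLDL+LPS. Its rank by mean scaled count was 7 of all genes in control and oxLDL PMφs and 9 in both LPS groups. Lyz1 held 665, 995 and 1230 in control libraries, 645, 902 and 1068 with oxLDL, 1284, 1082 and 1307 with LPS, and 1439, 996 and 1084 with oxLDL+LPS. For both genes the groups overlapped.

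Neither lysozyme gene passed the test with LPS. The log2 difference of Lyz2 was 0.07 (95% interval -0.46 to 0.60, limma, adjusted p = 0.817) for LPS against control and 0.09 (-0.39 to 0.57, limma, adjusted p = 0.748) for oxLDL+LPS against oxLDL. For Lyz1 the differences were 0.39 (-0.11 to 0.88, limma, adjusted p = 0.164) and 0.44 (-0.05 to 0.94, limma, adjusted p = 0.128). With the replicate number as a block, Lyz1 was called higher with LPS than in control (limma, adjusted p = 0.0888), in a fit that called 34.6% of all genes tested higher. The pools were uneven, with a ratio of LPS to control of 1.93 in number 1, 1.09 in number 2 and 1.06 in number 3.

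The upstream windows of Lyz1 and Lyz2 are shown because the genes are near copies whose levels differed widely. Over 201 bases each, they were identical in 151 of 203 aligned columns (74.4%), and capitals mark the bases that differ. They lie at chr10:117292918-117293118 for Lyz1 and chr10:117282322-117282522 for Lyz2, both on the minus strand (RefSeq, GRCm38.p6).
Lyz1: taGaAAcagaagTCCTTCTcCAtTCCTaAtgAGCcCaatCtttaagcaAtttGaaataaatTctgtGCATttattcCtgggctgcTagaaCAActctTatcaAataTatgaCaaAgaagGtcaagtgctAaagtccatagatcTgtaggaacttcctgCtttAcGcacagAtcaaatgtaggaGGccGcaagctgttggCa
Lyz2: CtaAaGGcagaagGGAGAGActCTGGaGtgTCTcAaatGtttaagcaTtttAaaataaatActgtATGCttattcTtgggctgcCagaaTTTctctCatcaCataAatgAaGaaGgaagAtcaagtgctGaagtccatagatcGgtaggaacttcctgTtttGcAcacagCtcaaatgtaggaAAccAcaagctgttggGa

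Lyz1 made up 0.409, 0.611 and 0.65% of the summed Lyz1 and Lyz2 counts in control libraries and 0.376, 0.566 and 0.638% with oxLDL. It made up 0.763, 0.678 and 0.602% with LPS and 0.758, 0.629 and 0.586% with oxLDL+LPS. Number 1 had the lowest share without LPS and the highest with it. The transcripts, of 1263 and 1316 bases, were identical in 1211 of 1317 aligned columns, with a longest identical run of 118 bases. No stretch of 150 bases, the read length, was shared, but 16.1% of the 50-base stretches of Lyz1 occurred in Lyz2, so the level of Lyz1 is uncertain.

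Per kb of merged exon, Lyz2 stood first in control PMφs at 129652 scaled counts, followed by Saa3 at 847, Lyz1 at 763, Slpi at 276, Hp at 32.0, Cp at 6.62, Lcn2 at 5.46 and Ptx3 at 0.994. The ranges of Saa3 and Lyz1 overlapped, as did those of Cp and Lcn2, and the other neighbours did not. With oxLDL the levels per kb were 125561 for Lyz2, 815 for Saa3, 690 for Lyz1, 303 for Slpi, 33.8 for Hp, 5.85 for Lcn2, 4.7 for Cp and 2.49 for Ptx3, and from Lcn2 to Ptx3 each gene overlapped the next, as did Saa3 and Lyz1. With LPS the order per kb was Lyz2 at 137061, Saa3 at 10252, Slpi at 1341, Lyz1 at 969, Lcn2 at 613, Hp at 446, Ptx3 at 251 and Cp at 126, and from Lyz1 to Cp each gene overlapped the next. With oxLDL+LPS it was Lyz2 at 134107, Saa3 at 6512, Slpi at 3128, Lyz1 at 929, Hp at 484, Lcn2 at 431, Ptx3 at 126 and Cp at 39.6. Here Saa3 overlapped Slpi, Lyz1 overlapped Hp, Hp overlapped Lcn2 and Ptx3 overlapped Cp.

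For LPS against control 6 of the 8 genes were called higher and none lower, where 31.4% of 13023 genes tested were called higher and 30.3% lower. For oxLDL+LPS against oxLDL 6 of 8 were called higher, where 28.2% of 12900 were, and 26.3% lower. The median log2 difference was 3.41 over the 8 genes and -0.001 over all genes tested in the first comparison. In the second the medians were 3.16 and -0.018. Counts and medians of the 8 genes include Ptx3, which passed the filter on low values through the libraries with LPS. When libraries were set to the same sum, the median of all genes moved to -0.48 for LPS against control, and higher calls made up 23.5% of all calls in place of 50.9%. For oxLDL+LPS against oxLDL the median moved to -0.40 and the share from 51.7 to 23.7%. The 6 genes were called higher under that scaling too, Slpi with the smallest log2 difference of the 6 for LPS against control (1.80, limma, adjusted p = 7.86e-06), whereas Lyz2 was called lower (-0.41, limma, adjusted p = 0.0813), by less than the median of all genes moved.

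**Figure D3:**
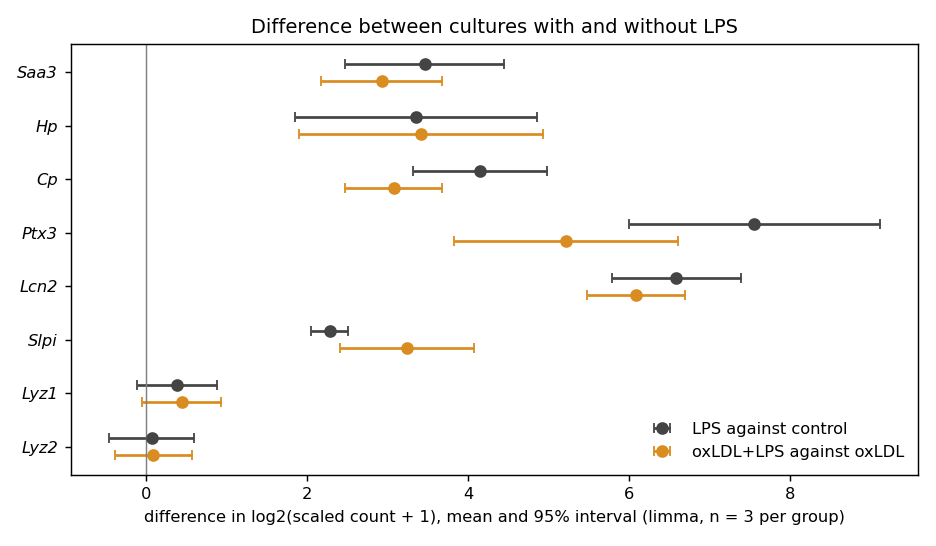
Log2 difference of each of the 8 genes between cultures with and without LPS, in the absence of oxLDL (LPS against control) and in its presence (oxLDL+LPS against oxLDL), with the 95% interval of the limma fit. The intervals of 6 genes lie above 0 in both comparisons, and those of Lyz1 and Lyz2 include 0.

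With oxLDL in the absence of LPS, 0 of the 7 genes tested were called, as was 0% of 12751 genes, of which 381 had an unadjusted p under 0.05 (limma). With the replicate block 4.71% of all genes were called and again none of the 7. Ptx3 was too low to be tested. Its implied reads numbered 10 in control and 22 in oxLDL libraries, a ratio of 2.34 (95% interval 1.07 to 5.55, counting error only), and the libraries overlapped. Of the 7 genes tested, Cp and Lyz1 were lower in 3 of 3 pools, and Hp and Slpi were higher in 3 of 3. The log2 difference of Cp, -0.50, did not pass the test (95% interval -1.18 to 0.18, limma, adjusted p = 1). Intervals of the other 6 genes included 0, the narrowest being that of Slpi (0.13, -0.13 to 0.40) and the widest that of Hp (0.08, -0.78 to 0.94). These intervals are from the fit without a block. Within pools Hp differed by 0.08, 0.078 and 0.085, and its SE was 0.366 without the block and 0.158 with it.

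The comparison of oxLDL+LPS with LPS asked how oxLDL altered LPS-stimulated levels, and it shares libraries with the comparisons above. Without a block 0 of the 8 genes were called, as was 0% of 12786 genes, 890 of which had an unadjusted p under 0.05 (limma). With the replicate number as a block, which compares libraries within a pool, 5 of the 8 were called. Saa3, Cp, Ptx3 and Lcn2 were lower with oxLDL+LPS, in a fit that called 8.74% of all genes lower, and Slpi was higher, where 4.42% were called higher.

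Cp fell by 1.57 on the log2 scale, to 24.0, 70.7 and 22.3% of LPS in numbers 1 to 3 (limma with block, SE 0.26, adjusted p = 0.0116, and 0.698 without it). Ptx3 fell by 1.06, to 50.2, 65.5 and 33.1% (limma with block, SE 0.16, adjusted p = 0.00863, and 0.783 without it). Both genes thus stood lowest against LPS in numbers 1 and 3. Saa3 fell by 0.58, to 59.9, 83.5 and 60.3% (limma with block, SE 0.12, adjusted p = 0.0256, and 0.826 without it). Lcn2 fell by 0.42, to 55.3, 89.8 and 83.7% (limma with block, SE 0.12, adjusted p = 0.0723, and 0.841 without it). Slpi alone of the 5 rose, by 1.09, to 264, 117 and 315% of LPS (limma with block, SE 0.215, adjusted p = 0.0208, and 0.698 without it). For all 5 genes the direction was the same in 3 of 3 pools, and the difference was smallest in number 2. Number 2 was also the pool whose LPS and oxLDL+LPS libraries were closest over all genes that passed the filter, at a Euclidean distance of 43.8 on the log2 scale against 62.4 in number 1 and 66.5 in number 3. Hp stood at 107, 119 and 106% of LPS, with a log2 difference of 0.15 that was not called (limma with block, SE 0.08, adjusted p = 0.324).

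Marker sums of some other cells, but not of all, were lower with oxLDL+LPS than with LPS as well. The neutrophil sum stood at 63.5, 82.6 and 60.4% of LPS in numbers 1 to 3. Csf3r, which made up 71.9% of that list, held 4944, 4822 and 6219 scaled counts with LPS and 2406, 3796 and 2886 with oxLDL+LPS. S100a8 was instead higher in all 3 pools, from 74, 97 and 178 to 134, 118 and 248. Mmp8 and Mmp9 were higher in numbers 1 and 3 and lower in number 2. The mesothelial sum stood at 65.1, 94.8 and 78.8%, and the sum of 7 markers of large peritoneal macrophages at 65.9, 95.6 and 80.6%. The fibroblast sum stood at 58.0, 109 and 85.3% and the macrophage sum at 104, 98.4 and 90.9%. The B cell sum stood at 88.9, 145 and 93.0% and the mast cell sum at 115, 66.4 and 45.2%. For eosinophils it was 75.2, 89.9 and 47.2%, and the T cell markers summed to 14 at most. The part of these cells in the lower levels of Saa3, Cp, Ptx3 and Lcn2 was not tested.

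Of the 8 genes, Cp and Slpi were those whose oxLDL+LPS libraries did not overlap the LPS libraries, as was the case for 12.6% of all genes tested. An exact permutation test of 3 against 3 cannot give a two-sided p below 0.1. Without all libraries of number 2, a choice made after the values were seen, the fit without a block called Cp lower (-2.11, limma, adjusted p = 0.0518) and Slpi higher (1.53, limma, adjusted p = 0.0499), where 0.543% of all genes were called. Without oxLDL+LPS number 2 alone, Slpi was called higher (1.55, limma, adjusted p = 0.0177).

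**Figure D4:**
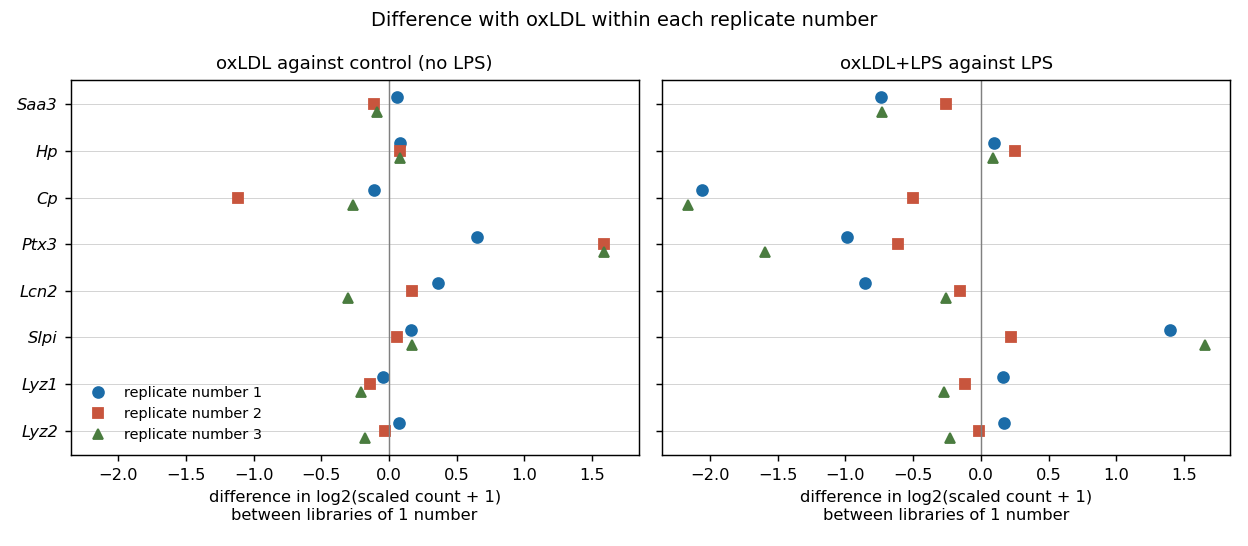
Difference in log2(scaled count + 1) with oxLDL between libraries of the same replicate number, without LPS on the left and with LPS on the right, with 1 point per pool for each of the 8 genes. With LPS the 3 points of Saa3, Cp, Ptx3 and Lcn2 lie below 0 and those of Slpi above 0, and number 2 is nearest to 0 for each of these 5 genes.

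The interaction asks whether the difference with LPS itself differed with oxLDL, and it uses the same 12 libraries. Of the 8 genes 0 were called, as was 0% of 13482 genes, of which 418 had an unadjusted p under 0.05 (limma), among them Cp, Ptx3 and Slpi. On the log2 scale the interaction was -1.07 for Cp (95% interval -2.14 to -0.004), -2.34 for Ptx3 (-4.53 to -0.15) and 0.96 for Slpi (0.06 to 1.85), each with an adjusted p of 1 in limma. For Ptx3 it was -1.51 with a pseudocount of 8 (limma, adjusted p = 1), and with the replicate number as a block it was not called (limma, adjusted p = 0.682). For Hp it was 0.06 (-2.20 to 2.33, limma, adjusted p = 1), with an SE of 1.032 without a block and 0.505 with the replicate number as a block. With a block for each pool within each LPS state, a fit added after the values were seen, 1.09% of all genes were called, Ptx3 among them (limma, adjusted p = 0.0477) and no other of the 8. Without oxLDL+LPS number 2, Slpi was called (1.41, limma, adjusted p = 0.0386).

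Of 26 other genes listed as acute-phase genes of the liver, 8 were at 0 in all 12 libraries, among them Crp, Apcs, Alb and Fgb. A total of 14, these included, never reached 10. Saa1 and Saa2, the liver forms of serum amyloid A, reached 1 and 3 at most. Of the 7 tested for LPS against control, 3 were called higher and none lower, where 31.4% and 30.3% of all genes were, with a median log2 difference of 0.64 where that of all genes was -0.001. They were genes for serine protease inhibitors of the Serpina3 family, whose members need not all be acute-phase genes of the liver. Serpina3f held 0, 2 and 1 scaled counts in control libraries and 526, 988 and 1075 with LPS, and it passed the filter on low values through the LPS libraries, as Ptx3 did. The others were Serpina3g (5.79 ± 0.50, limma, adjusted p = 4.7e-05) and Serpina3n (1.59 ± 0.63, limma, adjusted p = 0.0634). Serpina3 genes are a family of near copies among which reads can be split, so their values are uncertain. Serpina3g held 1466, 2220 and 2640 scaled counts with LPS and 320, 2244 and 397 with oxLDL+LPS, lower in numbers 1 and 3 and about level in number 2. With the block Serpina3f and Serpina3g were called lower with oxLDL+LPS than with LPS (limma with block, adjusted p = 0.0336 and 0.042), where 8.74% of all genes were. For oxLDL+LPS against oxLDL 3 of 7 were called higher and none lower, beside 28.2% and 26.3% of all genes. Orm1, for orosomucoid, was among the 3 (1.43 ± 0.30, limma, adjusted p = 0.00661). The 7 again include Serpina3f, which passed the filter through the oxLDL+LPS libraries.

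Of 21 other secreted antimicrobial and antiprotease genes, 14 were tested for LPS against control, with 6 called higher, 2 lower and a median of 0.21, beside 31.4%, 30.3% and -0.001 for all genes. Lgals9, for galectin 9 (3.71 ± 0.14, limma, adjusted p = 6.89e-07), and Serpinb2, for plasminogen activator inhibitor 2 (4.999 ± 0.38, limma, adjusted p = 2.61e-05), were higher. Cst7, for cystatin F, held 1, 2 and 1 scaled counts in control libraries and 209, 407 and 550 with LPS. Wfdc18, which has the same kind of domain as Slpi, held 1, 3 and 7 in control libraries and 16, 14 and 23 with LPS. Both were called, but they passed the filter through the LPS libraries alone. For oxLDL+LPS against oxLDL 5 of 13 were called higher and 3 lower, beside 28.2% and 26.3% of all genes. The 13 again include Cst7, which passed the filter through the oxLDL+LPS libraries. With the block Serpinb2, Cst7 and Wfdc17 were called lower with oxLDL+LPS than with LPS (limma with block, adjusted p = 0.00347, 0.0747 and 0.0457), and none of the 13 tested was called higher. That fit called 8.74% of all genes lower and 4.42% higher.

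Of 24 genes for signals and transcription factors of the acute-phase response, 23 were tested for LPS against control, with 16 called higher, 4 lower and a median of 1.91, beside 31.4%, 30.3% and -0.001 for all genes. The count includes Il6, which passed the filter through the LPS libraries alone. Those with the smallest p were the cytokine gene Tnf (9.83 ± 0.27, limma, adjusted p = 2.38e-07), Zc3h12a, for the ribonuclease Regnase-1 (3.70 ± 0.12, limma, adjusted p = 4.78e-07), Socs3, for an inhibitor of STAT3 signals (6.50 ± 0.23, limma, adjusted p = 5.58e-07), and Nfkbiz, for the nuclear IκBζ (5.69 ± 0.20, limma, adjusted p = 5.65e-07). For oxLDL+LPS against oxLDL 16 of 23 were called higher and 3 lower, beside 28.2% and 26.3% of all genes. The 23 again include Il6, which passed the filter through the oxLDL+LPS libraries. With the block 13 of 23 were called lower and 2 higher with oxLDL+LPS than with LPS, where 8.74% and 4.42% of all genes were, with a median of -0.35 where that of all genes was -0.012. Socs3 fell by 1.18, Stat3 by 0.54 and Il1b by 2.16 (limma with block, adjusted p = 0.00559, 0.0206 and 0.00787). Cebpa, for C/EBPα, held 6642, 6512 and 6237 scaled counts in control libraries, 852, 770 and 581 with LPS and 1901, 1072 and 1749 with oxLDL+LPS, and it was called higher in the last group than with LPS (1.07, limma with block, adjusted p = 0.00962). Cebpb, for C/EBPβ, held 15204, 11636 and 13902 with LPS and 12053, 9859 and 12473 with oxLDL+LPS.

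Of 21 receptors and binding partners of the proteins, 18 were tested for LPS against control, with a median of -0.28. In that comparison 5 were called higher and 7 lower, close to the shares over all genes (31.4% and 30.3%). For oxLDL+LPS against oxLDL 6 of 18 were called higher and 6 lower, beside 28.2% and 26.3% of all genes. Fpr2, a formyl peptide receptor that binds serum amyloid A, held 3, 4 and 2 scaled counts in control libraries, 2086, 1419 and 2744 with LPS, and 2036, 1299 and 2152 with oxLDL+LPS. Fpr1 held 4, 1 and 1 in control libraries and 1746, 521 and 1216 with LPS, with the pool order of Saa3. Both were called higher with LPS, but they passed the filter through the LPS libraries alone. The 18 tested for oxLDL+LPS against oxLDL also include Fpr1 and Fpr2, which passed the filter there through the oxLDL+LPS libraries. Lrp1, a scavenger receptor, and Slc40a1, the iron exporter ferroportin, fell by 1.17 and 3.41 with LPS (limma, adjusted p = 0.000753 and 0.000763). Slc40a1 held 15, 7 and 14 scaled counts with LPS and 112, 9 and 100 with oxLDL+LPS, a difference of 1.96 that was called with the block (limma with block, adjusted p = 0.0384) and was small in number 2. Slc22a17, a lipocalin 2 receptor, ranged from 21 to 71 and fell by 0.92 with LPS (limma, adjusted p = 0.0356). Cd163, the receptor for haptoglobin bound to haemoglobin, ranged from 2 to 25. Cd36, a receptor for oxLDL and serum amyloid A, was called higher with oxLDL both without LPS (0.93, limma with block, adjusted p = 0.0018) and with it (0.98, limma with block, adjusted p = 0.00984).

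Likeness of pattern was measured as the root mean square log2 difference over the 12 libraries, each gene centred on its own mean. Nearest to Saa3 were Gbgt1 at 0.29, Slc13a3 at 0.31 and Ifi27l2a at 0.31. Gbgt1 held 667, 220 and 593 scaled counts with LPS, lowest in number 2 as was Saa3. Nearest to Slpi were Osbpl3 at 0.38, Dck at 0.39 and Tma16 at 0.39. Dck held 3656, 1767 and 3282 scaled counts with LPS and 5299, 1815 and 4868 with oxLDL+LPS. Nearest to Cp were Art2a-ps at 0.44, the metallothionein gene Mt2 at 0.45 and Slamf9 at 0.49. Mt2 held 2896, 1052 and 1998 with LPS and 1058, 731 and 655 with oxLDL+LPS. Nearest to Lcn2 were F830016B08Rik at 0.34, Gm16015 at 0.35 and Cd38 at 0.37. Ptx3 was farther from its nearest genes, Ccnd2 at 0.65, Cxcl1 at 0.72 and Tnfsf9 at 0.73, and so was Hp, with Thbs1 at 0.61, Plac8 at 0.69 and Il10 at 0.75. Among the 8 genes the nearest to Saa3 was Cp, at 0.69. Without LPS, F830016B08Rik held at most 1 scaled count and Gm16015 0, and Slc13a3, Art2a-ps and Il10 stayed under 10. The distances of such genes depend on the pseudocount of 1. All distances describe 12 libraries that share pools and treatments.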

How the data were processed

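RNA was sequenced from 12 PMφ cultures, 4 groups of 3 by their labels. The authors trimmed 150-base paired reads with Trimmomatic (0.32), aligned them with STAR (2.5.1b) to GRCm38 and counted them per GENCODE gene with featureCounts (Subread). The deposited signal holds whole numbers with the spacing of counts divided by 1 factor per library (0.7078 to 1.31) and rounded, so no test made for raw counts was run. Reading the factors came within 0.1% in 22 of 24 simulated columns. Dates replaced 25 symbols.

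Groups were compared with limma (3.58.1, R 4.3.3, lmFit and eBayes with a trend) on log2(scaled count + 1), over genes with at least 10 in at least 3 libraries fitted. Tests were two-sided, and a difference was called at a p under 0.1 after Benjamini-Hochberg adjustment over all genes tested. Pairwise fits used 6 libraries and the interaction 12. The fits were tested on simulated data. The methods describe cells pooled and then divided among groups, and deviations from group means correlated across genes at 0.234 to 0.657 between libraries of the same number, and at most at 0.0332 between others. The numbers therefore pair the libraries, and fits with the number as a block are given where they change a call. The labels do not say that pools were separate experiments, so p-values measure the spread between these libraries.

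Alternatives were other pseudocounts, filters and scalings, a robust fit, a fit of all libraries and leaving out each library. Intervals on reads cover counting error only. Positions are from GENCODE vM21 on GRCm38.

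The genes and lists were chosen with earlier results of these data known. Beside the 8, the text names called genes of 4 lists, at most the 4 with the smallest p per list and comparison, receptors of the proteins, and the 3 genes nearest in pattern to each gene whose group means span at least 2 on the log2 scale. Any other gene was chosen after its values were seen.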

Additional observations from a re-analysis of the deposited data

Results flagged for a closer look

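The values of Ptx3 with and without oxLDL lay in opposite order without and with LPS. Without LPS, where it was too low to be tested and the groups overlapped, it was higher with oxLDL in 3 of 3 pools (6 against 10, 1 against 5 and 1 against 5 scaled counts), and with LPS it was lower in 3 of 3 (233 against 117, 954 against 625 and 831 against 275). The difference between these differences was -2.34 on the log2 scale, with an adjusted p of 1 in limma without a block, of 0.682 with the replicate number as a block and of 0.0477 with a block for each pool within each LPS state, a fit chosen after the data were seen. With a pseudocount of 8 it was -1.51. The values without LPS rest on 10 and 22 implied reads in all. Groups of 3 libraries were not tested for single outlying libraries.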

How the results depend on the processing

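The 6 genes called higher with LPS kept their direction and call in all 91 values of the alternatives for LPS against control. They did so too in all 95 for oxLDL+LPS against oxLDL. Ptx3 was testable under 11 and 15 of 16 settings. For LPS against control it entered the filtered fits through libraries with LPS. The highest adjusted p was 0.0249, for Hp. The replicate block moved the number of the 8 genes called for oxLDL+LPS against LPS from 0 to 5 and all calls from 0 to 1682, and all calls for oxLDL against control from 0 to 601. Beside these and Lyz1 with LPS it changed no other call of the 8 genes. Chosen after the data were seen, leaving out number 2 gave 2 called genes for oxLDL+LPS against LPS (67 of all genes), and the block within LPS state gave 1 for the interaction (147 of all genes).

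Leaving out 1 library gave 5 to 7 called genes for LPS against control, 6 to 7 for oxLDL+LPS against oxLDL, and 0 to 1 both for oxLDL+LPS against LPS and for the interaction, where Slpi was called without oxLDL+LPS replicate 2 (91 and 6 of all genes). The 5 came where Ptx3 could not be tested. Lyz1 was called without control replicate 3 (0.58, limma, adjusted p = 0.0423), without oxLDL replicate 3 (0.60, 0.0637) and without oxLDL+LPS replicate 2 (0.55, 0.0958).

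Differences that were not called in the main fits changed sign. With the same sum per library, LPS against control was -0.10 for Lyz1 and -0.41 for Lyz2, which was then called lower (limma, adjusted p = 0.0813). Under that scaling Lyz2 for oxLDL+LPS against oxLDL was -0.30, and Lyz1 and Lyz2 for oxLDL+LPS against LPS were 0.015 and 0.068. With the same upper quartile, Lyz2 was -0.18, -0.13 and 0.019 in these comparisons. Without 1 library, Lyz2 ranged from -0.065 to 0.157 for LPS against control. For oxLDL against control Saa3 ranged from -0.244 to 0.148, Hp from -0.218 to 0.378, Lcn2 from -0.001 to 0.234, Lyz1 from -0.374 to 0.072 and Lyz2 from -0.079 to 0.029. For oxLDL+LPS against LPS Hp ranged from -0.639 to 0.954, Lyz1 from -0.231 to 0.034 and Lyz2 from -0.109 to 0.113. These fits had no block, and with 1 library left out a pool was missing from 1 group. Within pools the difference of Hp was 0.095, 0.251 and 0.088 for oxLDL+LPS against LPS. For oxLDL against control it was 0.08, 0.078 and 0.085. For the interaction Hp ranged from -0.72 to 0.873, Lyz1 from -0.147 to 0.299 and Lyz2 from -0.066 to 0.156. The cause of these changes was not tested.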
